A study of Mus musculus with 12 samples.

Results

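The genes that control the entry of pyruvate into the mitochondrial pyruvate dehydrogenase complex were examined in primary cultured mouse hepatocytes, as 10 of the 22471 features measured. They were chosen by name: the kinases Pdk1, Pdk2, Pdk3 and Pdk4, the phosphatases Pdp1 and Pdp2, the E1 subunits Pdha1 and Pdhb, and the mitochondrial pyruvate carrier subunits Mpc1 and Mpc2. The set was drawn up with the response of Pdk4 to the drug already known, so the Pdk4 values are given as a description with no test. RNA sequencing covered 12 libraries in 4 groups of 3: control cells (Con), cells given oleic acid (ConOA, here OA), cells given benzbromarone (BBR, a drug that lowers uric acid by blocking its reabsorption in the kidney), and cells given both (BBROA, here BBR+OA). Per the study's methods the hepatocytes came from 6-week-old male C57BL/6J mice and were treated for 16 h with 15 µM BBR, 0.2 mM OA bound to albumin, or both. What the control cells received in place of drug and OA was not given in the sources used here, and the series calls the 3 libraries of a group biological replicates without saying whether they came from separate mice or preparations. The p-values below measure the spread between these libraries.

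The pyruvate dehydrogenase complex converts pyruvate to acetyl-CoA and so links glycolysis to the citric acid cycle. Pyruvate first crosses the inner mitochondrial membrane through a carrier made of Mpc1 and Mpc2. The kinases switch the complex off by phosphorylating the E1 alpha subunit (encoded by Pdha1), and the phosphatases switch it back on by removing the phosphate. In liver, Pdk2 and Pdk4 are the isoforms usually discussed, and Pdk4 is known as a gene that rises in fasting and with fatty acids, through PPAR nuclear receptors among other factors.

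Total counts per library ranged from 15485508 to 23668379. Levels within a gene are given as CPM (counts scaled by TMM library size), and levels between genes only as FPKM, which also divides by transcript length. All 10 genes passed the filter on low counts, with a lowest deposited count of 65 (Pdk3). Summed CPM of 9 hepatocyte markers lay between 35504 and 37028 in control, 40797 and 42027 in OA, 35955 and 37710 in BBR, and 42077 and 43989 in BBR+OA libraries. Most of this sum was Alb, at 27137 to 34454 CPM over the 12 libraries. The other markers were present in every library, from Ttc36 at 9.80 to 16.6 CPM up to Apob at 1902 to 3604 CPM. Summed CPM of 10 Kupffer cell markers lay between 101 and 120 in control, 109 and 123 in OA, 141 and 183 in BBR, and 116 and 123 in BBR+OA libraries. Summed CPM of 6 biliary markers lay between 590.0 and 722 in control, 242 and 272 in OA, 391 and 422 in BBR, and 199 and 240.2 in BBR+OA libraries, with Krt7 and Cftr among them at or near 0. A single gene made up most of each of these last 2 sums: Spp1 ranged from 143 to 680.4 CPM among the biliary markers and Cd68 from 59.5 to 149.6 CPM among the Kupffer cell markers. The sums over all libraries were 47.5 to 63.0 CPM for 6 endothelial markers, 6.13 to 9.60 CPM for 7 stellate cell markers and 0.658 to 5.97 CPM for 6 muscle markers, 3 of which were at 0 in every library. These marker levels moved with the treatments, and their part in the results below was not tested. In bulk RNA, fewer cells of a type and less RNA per cell cannot be told apart.

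Pdk4 (ENSMUSG00000019577, minus strand of chr6:5483351-5496309 in GRCm38, the mm10 build) had the widest range of the 10 genes. The sequence in front of its start is shown with those of Pdk1 and Pdk2, the other kinase genes with the highest level per length, and of Pdhb, the subunit gene that was lower under both BBR and OA. Each run ends before the start of the gene in both RefSeq and the GENCODE annotation, reads 5′ to 3′ on the gene's own strand, and comes from the RefSeq promoter table (GRCm38.p6). The runs are chr6:5496310-5496528 (minus strand, 219 bases) for Pdk4, chr2:71872974-71873223 (plus strand, 250 bases) for Pdk1, chr11:95041372-95041621 (minus strand, 250 bases) for Pdk2 and chr14:8173026-8173242 (minus strand, 217 bases) for Pdhb. Capitals mark exact matches, on either strand, to the motifs described after them.
Pdk4: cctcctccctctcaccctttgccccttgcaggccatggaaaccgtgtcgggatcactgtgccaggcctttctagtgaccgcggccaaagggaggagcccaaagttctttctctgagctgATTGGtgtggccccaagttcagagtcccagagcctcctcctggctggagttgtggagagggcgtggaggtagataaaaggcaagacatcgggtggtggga
Pdk1: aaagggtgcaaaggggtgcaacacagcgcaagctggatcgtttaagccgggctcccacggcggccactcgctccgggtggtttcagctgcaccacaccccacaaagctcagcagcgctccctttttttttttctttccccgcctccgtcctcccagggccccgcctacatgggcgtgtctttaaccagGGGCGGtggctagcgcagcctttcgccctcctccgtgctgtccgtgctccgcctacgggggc
Pdk2: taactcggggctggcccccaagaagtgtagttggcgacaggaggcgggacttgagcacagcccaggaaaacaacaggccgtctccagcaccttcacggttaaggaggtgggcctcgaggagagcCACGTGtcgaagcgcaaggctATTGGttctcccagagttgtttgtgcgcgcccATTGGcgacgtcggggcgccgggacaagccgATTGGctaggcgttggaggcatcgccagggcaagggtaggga
Pdhb: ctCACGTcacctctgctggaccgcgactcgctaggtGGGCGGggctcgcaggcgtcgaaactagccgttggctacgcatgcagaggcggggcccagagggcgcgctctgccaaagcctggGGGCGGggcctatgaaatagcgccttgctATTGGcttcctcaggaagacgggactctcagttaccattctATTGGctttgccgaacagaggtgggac

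The motifs searched, on both strands of the 250 bases before each RefSeq start, were CCAAT, the GC box GGGCGG, the hypoxia response core ACGTG, the FOXO element GTAAACA, the nuclear receptor half-site AGGTCA, the estrogen-related receptor element TCAAGGTCA (which contains that half-site), and a DR1 element, written as 2 copies of AGGNCA separated by 1 base. Promoter windows were given for 9 of the 10 genes, as 12 windows. The Pdk4 window held 1 CCAAT box, 131 to 127 bases before the start, and none of the other motifs. Pdk1 held 1 GC box, at 62 to 57 bases. Pdk2 held 3 CCAAT boxes and 2 overlapping ACGTG cores, 1 on each strand and offset by 1 base. Pdhb held 3 CCAAT boxes, of which the one nearest the start lies outside the run shown, 2 GC boxes and 1 ACGTG core. Among 32851 RefSeq promoter windows of this length, CCAAT was present in 33.9%, GGGCGG in 32.7%, ACGTG in 16.6%, AGGTCA in 14.02%, GTAAACA in 3.17%, the estrogen-related receptor element in 0.387% and the DR1 element in 0.338%. AGGTCA was found in 1 of the 12 windows, the second one of Mpc1, while GTAAACA, the estrogen-related receptor element and the DR1 element were found in 0 of 12. The absence of a match says only that these letters are not in these windows.

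Pdk4 stood at 9.59, 9.26 and 10.5 CPM in the control libraries and at 14.3, 15.9 and 11.7 CPM in the OA libraries. In BBR libraries it stood at 116, 115 and 105 CPM, and in BBR+OA libraries at 39.1, 37.2 and 33.6 CPM. In CPM the 4 groups did not overlap in any pair, in the order control, OA, BBR+OA, BBR. In the deposited FPKM the control (2.81 to 3.71) and OA (3.39 to 4.53) libraries overlapped. The length implied for Pdk4 varied among libraries, as given below. Relative to control, BBR alone gave a fold of 11.5 (log2 fold change 3.52, SE 0.069, n = 3 per group). OA alone gave a fold of 1.43 (log2 0.52, SE 0.11). In cells that had OA, the fold with BBR was 2.62 (log2 1.39, SE 0.096), and in cells that had BBR, OA went with a level 3.05-fold lower (log2 -1.61, SE 0.061). The BBR effect on Pdk4 with OA minus that without it was -2.12 log2 units (SE 0.13).

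**Figure D1:**
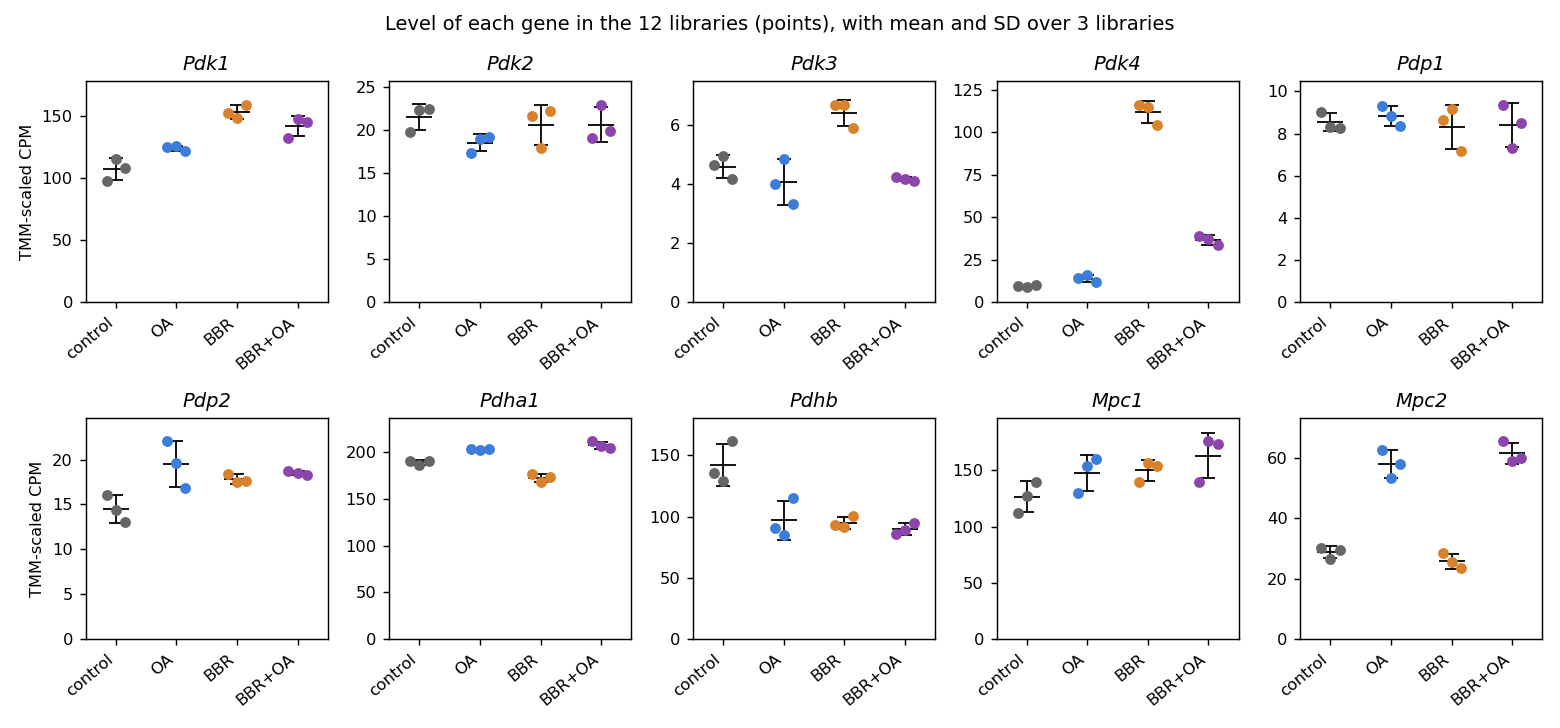
TMM-scaled CPM of the 10 genes (y axis, from 0) in the 4 groups (x axis). Points are single libraries, the long dash is the mean and the bars are the SD over 3 libraries. Pdk4 lies between 9.26 and 15.9 CPM in the 6 libraries without BBR and between 33.6 and 116 CPM in the 6 with it, while Mpc2 separates by OA instead.

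Pdk1 (ENSMUSG00000006494, plus strand of chr2:71873224-71903858), best known as the kinase isoform induced by hypoxia, stood at 97.8, 115 and 108 CPM in control and at 125, 125 and 122 CPM in OA libraries. It stood at 152, 148 and 159 CPM in BBR libraries and at 132, 147 and 145 CPM in BBR+OA libraries. Its group order was the same as that of Pdk4, again with no overlap between neighbouring groups, but over a range of 1.43-fold from the lowest to the highest group mean. Pdk1 rose with BBR by 0.52 log2 units (SE 0.056, edgeR quasi-likelihood adjusted p = 3.58e-06) and with OA by 0.22 (SE 0.058, adjusted p = 0.0068). With OA present the rise under BBR was 0.19 (SE 0.051, adjusted p = 0.048). That call was lost with all 12 libraries in one fit (adjusted p = 0.0502) and when any 1 of 5 libraries was left out (OA replicates 1, 2 and 3, and BBR+OA replicates 2 and 3), with adjusted p up to 0.211. With OA added to BBR the log2 fold change was -0.11 (SE 0.049, adjusted p = 0.0824), which passed the threshold under upper quartile scaling (adjusted p = 0.0207) and library totals (0.0419). That change also passed with the replicate number as a block in the fit. The BBR effect on Pdk1 was smaller with OA than without it by 0.32 log2 units (SE 0.079, adjusted p = 0.0112).

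Pdk3 (ENSMUSG00000035232, minus strand of chrX:93764607-93832201) is a kinase isoform with low expression in liver. It stood at 4.67, 4.96 and 4.17 CPM in control, 4.02, 4.87 and 3.32 CPM in OA, 6.67, 6.70 and 5.92 CPM in BBR, and 4.25, 4.17 and 4.11 CPM in BBR+OA libraries. The BBR libraries lay above all others, and the other 3 groups overlapped with their neighbours. Pdk3 rose under BBR by 0.49 (SE 0.13, adjusted p = 0.0114). That call was lost without control replicate 3, where the log2 fold change was 0.42 (adjusted p = 0.0551). Adding OA to BBR lowered it (log2 -0.62, SE 0.13, adjusted p = 0.00194). With OA alone the log2 fold change was -0.17 (SE 0.16, adjusted p = 0.431), and the interaction of BBR and OA did not pass the test (log2 -0.44, SE 0.20, adjusted p = 0.178).

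Pdk2 (ENSMUSG00000038967, minus strand of chr11:95026258-95041354), the isoform widely expressed in liver, kept to 17.4 to 22.9 CPM over the 12 libraries. In the order of group means (OA, BBR, BBR+OA, control) every pair of neighbouring groups overlapped. The OA (17.4 to 19.2 CPM) and control (19.8 to 22.4 CPM) libraries, at the ends of that order, did not overlap. Its log2 fold change under BBR was -0.048 with a 95% interval from -0.21 to 0.12. Pdk2 fell under OA (log2 -0.21, SE 0.078, adjusted p = 0.0413), a call that was lost in DESeq2 (adjusted p = 0.105), with all 12 libraries in one fit (adjusted p = 0.0541) and without OA replicate 1 or 2 or control replicate 2 or 3 (adjusted p up to 0.148). With OA present, the BBR change was 0.15 (95% interval -0.013 to 0.32). The annotation places an antisense gene, Gm11513, over Pdk2, and whether counting used the strand was not given in the sources used here.

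Per length, Pdk1 was the main kinase transcript in control cells. Its share of the summed FPKM of the 4 kinase genes was 57.8% ± 0.50 (SD, n = 3), followed by Pdk2 with 26.9% ± 0.78, Pdk4 with 9.27% ± 0.73 and Pdk3 with 6.11% ± 0.65. Under BBR the shares were 43.5% ± 2.33 for Pdk4, 39.9% ± 1.59 for Pdk1, 12.4% ± 1.29 for Pdk2 and 4.12% ± 0.28 for Pdk3. In BBR libraries Pdk4 thus stood at a level comparable to that of Pdk1, with shares of 40.9% to 45.4% for Pdk4 against 38.8% to 41.8% for Pdk1. Pdk4 held 10.6% ± 1.13 with OA and 21.5% ± 2.0 with BBR+OA. The summed kinase FPKM was 36.1 ± 2.64 in control, 37.8 ± 1.47 in OA, 74.2 ± 1.71 in BBR and 48.6 ± 1.71 in BBR+OA libraries. Without Pdk4 the sums were 32.8 ± 2.19, 33.8 ± 0.91, 41.9 ± 1.85 and 38.1 ± 2.0 in the same order. The shares and the sums over all 4 kinase genes include Pdk4 or are set by it. None of these sums and shares was tested. The length that the deposited counts and FPKM imply for Pdk4 varied between 2524 and 3485 bases among libraries, with the short values in control replicates 2 and 3. With 1 fixed length per gene the control share of Pdk4 was 8.0%.

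**Figure D2:**
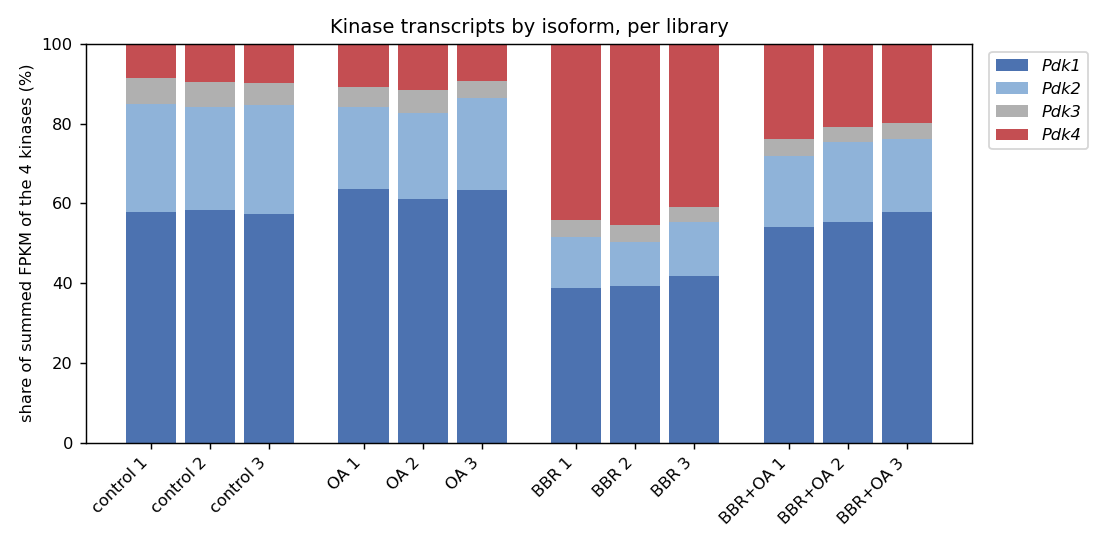
Share of each kinase gene in the summed FPKM of Pdk1 to Pdk4 (y axis, percent, from 0) in each of the 12 libraries (x axis). Pdk4 takes 40.9% to 45.4% of the sum in the BBR libraries, against 8.43% to 9.76% in control libraries.

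The phosphatases work against the kinases. Pdp1 (ENSMUSG00000049225, minus strand of chr4:11958184-11966452), the isoform stimulated by calcium, stood between 7.16 and 9.36 CPM in the 12 libraries, with overlap between all neighbouring groups. Its log2 fold changes were -0.031 under BBR (95% interval -0.26 to 0.20) and 0.057 under OA (95% interval -0.14 to 0.26), and it passed no test in the 4 comparisons. Pdp2 (ENSMUSG00000048371, plus strand of chr8:104591451-104599026), the isoform known to respond to insulin, stood at 16.1, 14.4 and 13.02 CPM in control and 22.0, 19.6 and 16.9 CPM in OA libraries. In BBR libraries it stood at 18.4, 17.5 and 17.6 CPM, and in BBR+OA libraries at 18.7, 18.5 and 18.2 CPM. The control libraries lay below all others, and the 3 treated groups overlapped. Pdp2 rose under OA by 0.44 (SE 0.10, adjusted p = 0.00359) and under BBR by 0.31 (SE 0.087, adjusted p = 0.0128). The BBR call was lost without control replicate 3, where the log2 fold change was 0.24 (adjusted p = 0.0701). With OA present the BBR change was -0.076 (95% interval -0.26 to 0.10). The difference between the BBR effects missed the threshold (log2 -0.38, SE 0.13, adjusted p = 0.0657). That difference passed with no filter on low counts (0.0453) and without control replicate 1 (0.0361) or OA replicate 3 (0.0123). It also passed with the replicate number as a block in the fit. Per length, the summed kinase FPKM was 5.85 ± 0.78 times the summed phosphatase FPKM in control, 5.24 ± 0.34 times in OA, 11.05 ± 0.74 times in BBR and 7.18 ± 0.82 times in BBR+OA libraries. The phosphatase sum itself lay between 5.84 and 7.70 FPKM in all libraries. The kinase sum in this ratio includes Pdk4, the gene chosen with its response known. Without Pdk4 the kinase sum was 32.8 ± 2.19 FPKM in control and 33.8 ± 0.91 in OA libraries. It was 41.9 ± 1.85 in BBR and 38.1 ± 2.0 in BBR+OA libraries. The ratio was not tested.

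The E1 subunits form the heterotetramer that decarboxylates pyruvate, with Pdha1 coding for the alpha subunit that carries the phosphorylation sites and Pdhb for the beta subunit. Pdhb (ENSMUSG00000021748, minus strand of chr14:8165996-8173025) stood at 136, 129 and 161 CPM in control, 90.6, 84.9 and 115 CPM in OA, 93.2, 91.4 and 101 CPM in BBR, and 85.8, 89.0 and 94.8 CPM in BBR+OA libraries. All 9 treated libraries lay below the lowest control library, and the 3 treated groups overlapped. Pdhb fell under BBR (log2 -0.57, SE 0.069, adjusted p = 1.30e-05) and under OA (log2 -0.55, SE 0.10, adjusted p = 5.26e-04). Where the other agent was already present, adding BBR gave -0.11 (95% interval -0.28 to 0.059) and adding OA gave -0.083 (95% interval -0.18 to 0.017), and neither passed the test. The BBR effect was 0.47 log2 units less negative with OA than without it (SE 0.13, adjusted p = 0.0225). This last call was lost in DESeq2 (adjusted p = 0.0735) and without any 1 of 6 libraries: control replicate 3, OA replicate 1 or 2, BBR replicate 2, and BBR+OA replicate 2 or 3 (adjusted p up to 0.0969).

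Pdha1 (ENSMUSG00000031299, minus strand of chrX:160122209-160138413) moved less. It stood at 191, 187 and 191 CPM in control, 204, 202 and 203 CPM in OA, 177, 168 and 174 CPM in BBR, and 212, 207 and 205 CPM in BBR+OA libraries. The groups did not overlap, with BBR lowest and BBR+OA highest, over a range of 1.20-fold. Pdha1 rose when OA was added to BBR by 0.26 (SE 0.040, adjusted p = 1.31e-04). Under BBR alone it fell (log2 -0.12, SE 0.044, adjusted p = 0.0457). That call was lost in DESeq2 (adjusted p = 0.0714), under RLE scaling, with no filter on low counts, and without any 1 of the 6 libraries (adjusted p up to 0.157). The OA change of 0.11 in cells without BBR missed the threshold (SE 0.045, adjusted p = 0.063) but passed it with all 12 libraries in one fit (adjusted p = 0.0394). The threshold was missed too by the difference between the BBR effects (log2 0.16, SE 0.055, adjusted p = 0.0608). With the replicate number as a block in the fit, the OA change (adjusted p = 0.00679) and this difference (0.0238) passed. Per length, the ratio of Pdha1 to Pdhb FPKM was 0.714 ± 0.076 in control, 1.13 ± 0.17 in OA, 0.968 ± 0.045 in BBR and 1.23 ± 0.082 in BBR+OA libraries. The deposited Pdha1 counts were fractional in 12 of 12 libraries, which was so for none of the other 9 genes. Map3k15, which lies over Pdha1 on the other strand, stood between 0.512 and 1.78 CPM.

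The carrier subunits act as a pair, but their transcripts did not move alike. Mpc2 (ENSMUSG00000026568, plus strand of chr1:165460637-165481214) stood at 30.3, 26.4 and 29.4 CPM in control and 28.4, 25.6 and 23.5 CPM in BBR libraries. It stood at 62.5, 53.3 and 57.9 CPM in OA and 65.3, 58.9 and 59.9 CPM in BBR+OA libraries. The 6 libraries with OA lay above the 6 without it, and within each set the groups with and without BBR overlapped. Mpc2 rose under OA by 1.02 (SE 0.072, adjusted p = 8.61e-08), a fold of 2.03, and when OA was added to BBR by 1.24 (SE 0.070, adjusted p = 1.05e-08), a fold of 2.37. Its BBR changes were -0.14 without OA (95% interval -0.30 to 0.013) and 0.082 with it (95% interval -0.046 to 0.21).

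Mpc1 (ENSMUSG00000023861, plus strand of chr17:8282904-8297661) stood between 112 and 140 CPM in control, 130 and 160 CPM in OA, 139 and 157 CPM in BBR, and 140 and 176 CPM in BBR+OA libraries. All neighbouring groups overlapped. Mpc1 rose under BBR by 0.25 (SE 0.067, adjusted p = 0.0104) and under OA by 0.23 (SE 0.081, adjusted p = 0.0328). The BBR call was lost with all 12 libraries in one fit (adjusted p = 0.0521) and without BBR replicate 2 or control replicate 1 (adjusted p up to 0.0563), and the OA call under scaling by upper quartile or library totals and without any 1 of 4 libraries: OA replicates 2 and 3, and control replicates 1 and 2 (adjusted p up to 0.153). With a replicate block in the edgeR fit both calls were kept (adjusted p = 6.80e-05 under BBR and 1.16e-07 under OA). With OA added to BBR the change was 0.12 (SE 0.073, adjusted p = 0.218), which passed the threshold without BBR+OA replicate 1 (0.22, adjusted p = 0.00552). This change also passed with the replicate block. Per length, Mpc1 stood above Mpc2 in all 12 libraries. The ratio of Mpc1 to Mpc2 FPKM was 4.75 ± 0.67 in control, 6.29 ± 0.92 in BBR, 2.76 ± 0.47 in OA and 2.87 ± 0.49 in BBR+OA libraries. The annotation also draws other genes over Mpc1 (4930506C21Rik, other strand) and Mpc2 (Gm37860, same strand).

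**Figure D3:**
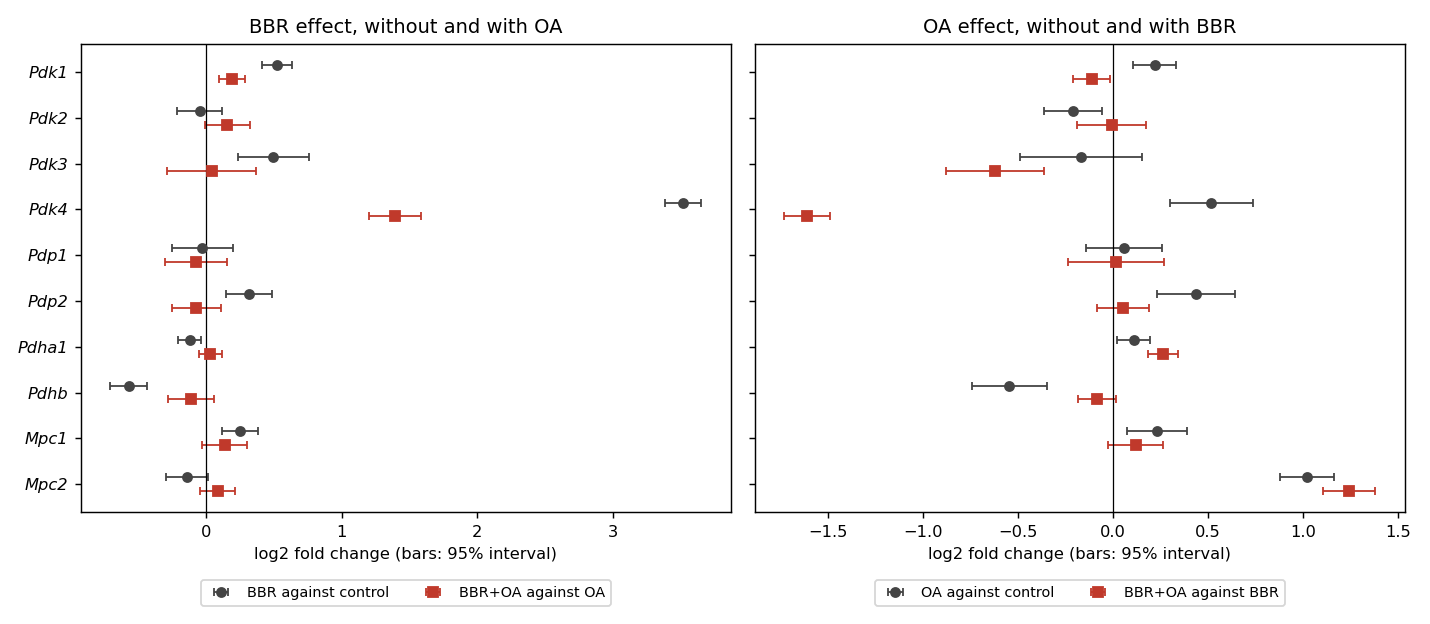
Fitted log2 fold changes of the 10 genes (x axis), with bars of the 95% interval, each from the 6 libraries of its comparison. The bars of Pdk4 are a description, as that gene was chosen with its response known. The left panel gives the BBR effect without and with OA, the right panel the OA effect without and with BBR. Under BBR, Pdk4 has 3.52 without OA and 1.39 with it, Pdhb has -0.57 and -0.11, and Mpc2 stays near 0. Under OA, Mpc2 has 1.02 and 1.24.

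The 9 genes other than Pdk4 were counted against the share of all tested genes that were called at an adjusted p under 0.05 in the same direction. Under BBR alone 4 of 9 rose (Pdk1, Pdk3, Pdp2, Mpc1) and 2 fell (Pdha1, Pdhb), where 13.2% of all genes rose and 14.5% fell. Under OA alone 4 rose (Pdk1, Pdp2, Mpc1, Mpc2) and 2 fell (Pdk2, Pdhb), where 21.3% of all genes rose and 21.5% fell. With BBR added to OA, 1 rose (Pdk1) and 0 fell, against 1.95% and 2.63% of all genes (edgeR; DESeq2 gave the same counts, and 0 of the 9 were lower at an unadjusted p under 0.05). With OA added to BBR, 2 rose (Pdha1, Mpc2) and 1 fell (Pdk3), against 20.1% and 18.8%. The interaction was positive for 1 (Pdhb) and negative for 1 (Pdk1), against 6.87% and 5.31%. The median log2 fold change of the 9 genes was -0.031, 0.11, 0.039 and 0.015 in the 4 comparisons in this order, with a median of all genes between -0.0061 and -3.12e-04. The comparisons share libraries: control serves BBR and OA alone, and BBR+OA serves both comparisons with the combined treatment.

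Among the other genes of the complex, the lists were described by their counts. Of the 4 other subunit genes (the E2 and E3 enzymes, the E3-binding protein and the regulatory subunit of the phosphatase), 1 rose under BBR (13.2% of all genes did): Dld, the E3 dihydrolipoamide dehydrogenase, by 0.18 (SE 0.050, adjusted p = 0.0142). Under OA 2 rose and 1 fell, against 21.3% and 21.5% of all genes. Dlat, the E2 acetyltransferase, rose by 0.23 (SE 0.060, adjusted p = 0.0069), Dld by 0.18 (SE 0.051, adjusted p = 0.0116), and Pdpr, the regulatory subunit of the phosphatase, fell (log2 -0.30, SE 0.087, adjusted p = 0.0123). Of 3 genes for the attachment of lipoic acid, the cofactor of E2, 0 passed in any of the 4 comparisons in edgeR or in DESeq2, and 0 had an unadjusted p under 0.05. The branched-chain keto acid dehydrogenase is a sister complex with its own kinase and phosphatase. Of its 5 genes, 1 rose and 2 fell under BBR, where 13.2% of all genes rose and 14.5% fell. The phosphatase Ppm1k rose by 0.59 (SE 0.13, adjusted p = 0.00317), the kinase Bckdk fell (log2 -0.30, SE 0.084, adjusted p = 0.0132), as did the E1 alpha subunit Bckdha (log2 -0.30, SE 0.057, adjusted p = 9.77e-04). Under OA 0 of the 5 rose and 2 fell (21.3% and 21.5% of all genes), Bckdha by 0.87 (SE 0.068, adjusted p = 2.21e-07) and the E1 beta subunit Bckdhb by 0.44 (SE 0.13, adjusted p = 0.015).

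Of 14 genes listed for other routes of pyruvate, 12 were tested. The list also holds the transporters Slc16a1 and Slc16a7, and Pck1 and Pck2, which act on oxaloacetate. Under BBR 3 rose and 7 fell in edgeR (3 and 5 in DESeq2), where 13.2% and 14.5% of all genes did, and the median log2 fold change of the list was -0.20. Gpt2, the mitochondrial alanine transaminase, fell from 187 ± 8.98 to 95.5 ± 12.05 CPM (log2 -0.96, SE 0.070, adjusted p = 9.25e-08). With OA present its BBR change was 0.048 (SE 0.052), and the interaction was 1.02 (SE 0.097, adjusted p = 5.69e-06). Pklr, the liver pyruvate kinase, fell from 812 ± 47.9 to 522 ± 64.2 CPM (log2 -0.63, SE 0.071, adjusted p = 5.89e-06). Pkm, the other pyruvate kinase gene, rose from 1122 ± 43.1 to 1371 ± 53.9 CPM (log2 0.30, SE 0.051, adjusted p = 3.71e-04). Me2, a mitochondrial malic enzyme, rose by 0.68 (SE 0.11, adjusted p = 1.44e-04). Under OA 6 rose and 2 fell (5 and 2 in DESeq2), where 21.3% and 21.5% of all genes did, with a median of 0.17. Pcx, pyruvate carboxylase, which makes oxaloacetate from pyruvate, fell from 119 ± 3.76 to 68.6 ± 1.74 CPM (log2 -0.78, SE 0.050, adjusted p = 2.82e-08). Slc16a7, a monocarboxylate transporter of the plasma membrane, rose by 0.55 (SE 0.13, adjusted p = 0.00431). Pck1, which makes phosphoenolpyruvate from oxaloacetate, rose by 1.09 (SE 0.29, adjusted p = 0.00756) from a low level of 0.905 ± 0.13 to 1.91 ± 0.60 CPM. With OA added to BBR 7 rose and 2 fell (20.1% and 18.8% of all genes). With BBR added to OA 0 rose and 1 fell in edgeR and in DESeq2 (1.95% and 2.63% of all genes in edgeR), with 1 higher and 4 lower at an unadjusted p under 0.05.

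Of 16 citric acid cycle genes, 1 rose and 2 fell under BBR, which is near the share of all genes (13.2% and 14.5%). Mdh2, the mitochondrial malate dehydrogenase, rose by 0.19 (SE 0.047, adjusted p = 0.00587), Suclg2, a subunit of succinyl-CoA ligase, had -0.21 (SE 0.046, adjusted p = 0.00298) and Sdha, a subunit of succinate dehydrogenase, -0.13 (SE 0.044, adjusted p = 0.036). Under OA 3 rose and 2 fell, against 21.3% and 21.5% of all genes, led by Mdh2 with 0.38 (SE 0.046, adjusted p = 1.47e-05), Idh3a, a subunit of isocitrate dehydrogenase, with 0.35 (SE 0.058, adjusted p = 2.30e-04), and Suclg2 with -0.27 (SE 0.051, adjusted p = 7.21e-04). With OA added to BBR 8 of the 16 rose and 0 fell, against 20.1% and 18.8% of all genes, and with BBR added to OA 0 passed the edgeR test in either direction (4 higher and 0 lower at an unadjusted p under 0.05, and 0 in DESeq2).

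Of 12 transcription factors and coactivators known to act on Pdk genes, 1 rose and 3 fell under BBR, where 13.2% and 14.5% of all genes did. Hif1a, the oxygen-regulated factor that acts on Pdk1, had -0.40 (SE 0.053, adjusted p = 2.98e-05), Rxra, the partner of the PPARs, -0.30 (SE 0.051, adjusted p = 3.25e-04) and Foxo3, a forkhead factor, 0.26 (SE 0.068, adjusted p = 0.00911). Under OA 4 rose and 4 fell, against 21.3% and 21.5% of all genes. Ppara, a nuclear receptor that responds to fatty acids, rose from 5.09 ± 0.48 to 7.81 ± 0.15 CPM (log2 0.62, SE 0.12, adjusted p = 8.71e-04). Pparg had -0.62 (SE 0.096, adjusted p = 1.29e-04), and the coactivator Ppargc1a -0.92 (SE 0.21, adjusted p = 0.00291). Under BBR alone Ppara had a log2 fold change of 0.078 (SE 0.15), Pparg of -0.0082 (SE 0.094) and Ppargc1a of -0.057 (SE 0.19). These are transcript levels and say nothing of the activity of a factor.

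**Figure D4:**
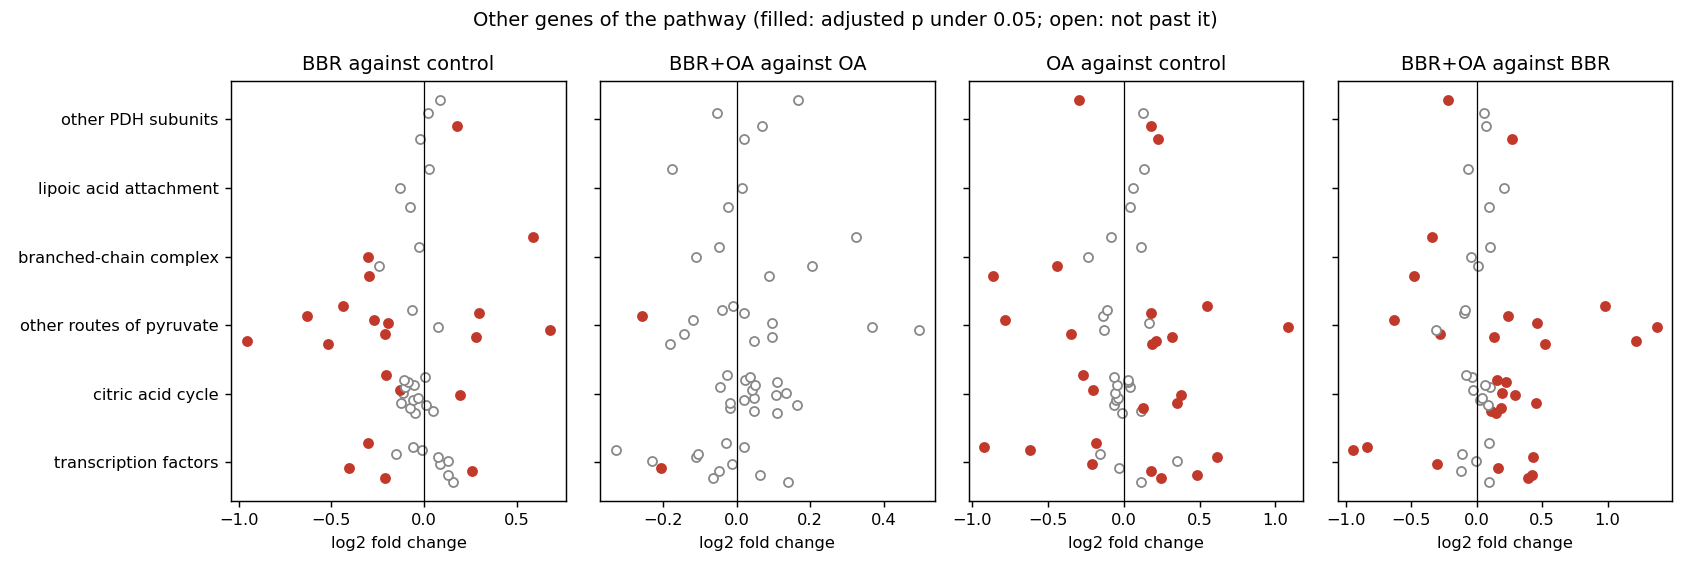
Log2 fold changes (x axis) of the other genes of the pathway by list (y axis), 1 point a gene and 1 panel a comparison. Filled points had an adjusted p under 0.05, open points did not, and the panels have different x ranges. Under BBR most filled points of the other routes of pyruvate lie below 0 (7 against 3), and with BBR added to OA the filled points are 1 gene of the other routes (Pklr) and 1 of the transcription factors (Hif1a).

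The genes whose log2 CPM over the 12 libraries was most like that of Pdk4, out of 12742, were Prrg4 (Pearson r = 0.98), H1f0 (0.957), Kitl (0.952), Pip4k2c (0.951) and Smox (0.951). The 12 points share 4 treatments, so these values describe a likeness in group levels, and no test was made. Mean levels of Smox, spermine oxidase, were 152 CPM in control, 162 in OA, 297 in BBR and 194 in BBR+OA libraries. Those of Kitl, the ligand of the Kit receptor, were 4.79, 4.71, 9.70 and 6.48 CPM. Both genes were picked by this correlation, so a highest mean with BBR alone and an intermediate one with BBR+OA follow from the choice. The OA mean of Kitl lay below its control mean, unlike that of Pdk4.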

How the data were processed

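The genes, gene lists and tests were chosen with earlier results of these data known. RNA was enriched for poly(A) transcripts and sequenced on an Illumina instrument (mm10 build, per the labels). The aligner, the counting program and the use of strand were not given in the sources used here. For each of 12 libraries the authors deposited an estimated count per feature, not always whole, and an FPKM value per feature (fragments scaled by length and depth). Estimated counts were rounded. FPKM served for comparisons between genes, and for the sums, shares and ratios of genes given for each group. For Pdk4 it was also compared between control and OA. FPKM was used as deposited, without TMM scaling, and was not tested.

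Group and replicate came from the titles. Each pair of groups was fitted on its own 6 libraries in edgeR 4.0.16 (R 4.3.3): filterByExpr with a minimum count of 10, TMM scaling, the two-sided quasi-likelihood F test, and Benjamini-Hochberg adjustment over all genes tested, with calls at 0.05. The interaction, the BBR effect with OA minus that without, used all 12 libraries. SE values were derived from the F statistic, and 95% intervals take the normal distribution. The fitting code was run on simulated counts with known changes and no replicate effect. That is a check of the code and not of the calls in these data. Pdk4 was not tested, and its SE and intervals are a description only. Levels are CPM with TMM scaling over 12 libraries, and errors are the SD over 3.

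From each pathway list, the up to 3 genes with the largest absolute log2 fold change among those called under BBR, and likewise under OA, were named, with the 5 genes most correlated with Pdk4. Pkm was named beside Pklr as the other pyruvate kinase gene of its list. Coordinates come from GENCODE on GRCm38. Alternatives were RLE, upper quartile and total-count scaling, no filter, DESeq2 1.42.0, a replicate block, a threshold of 0.01, all 12 libraries in one fit, and leaving out each library.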

Additional observations from a re-analysis of the deposited data

Results flagged for a closer look

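The interaction of BBR and OA is the BBR effect in cells given OA minus the BBR effect in other cells. It passed its test for 2 of the 9 genes other than Pdk4, and for 5 with a replicate block in the fit. For Pdk1 it was -0.32 log2 units (SE 0.079, edgeR interaction test, adjusted p = 0.0112): the rise under BBR was 0.52 without OA and 0.19 with it, and the difference kept its sign and its call in each fit that left out 1 library. For Pdhb it was 0.47 log2 units (SE 0.13, adjusted p = 0.0225): BBR gave -0.57 without OA and -0.11 with it, and this call was lost without any 1 of 6 libraries, as named with Pdhb above. Both were read from 12 libraries, and no cause was tested.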

How the results depend on the processing

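Of the log2 fold changes of the 9 genes other than Pdk4 under all alternatives, 594 kept their direction and side of the threshold, 48 kept the direction and lost the call, 14 gained a call and 19 changed sign, all of them uncalled. The 75 values of Pdk4 kept their direction. Called genes among the 9 numbered 6 under BBR alone, 2 at an adjusted p under 0.01 and 3 to 5 when 1 library was left out (3 without control replicate 3). For BBR added to OA the count was 1, with 2 under the replicate block, 0 at 0.01, 0 with all 12 libraries in one fit and 0 to 1 with a library left out. For OA added to BBR it was 3, with 5 under the replicate block. For the interaction it was 2, with 1 in DESeq2, 5 under the replicate block, 0 at 0.01 and 1 to 3 with a library left out. Same-numbered libraries deviated together with r from 0.0234 to 0.155, positive but not above 0.1 in every pair. No label says what a number marks, so the replicate numbers were not taken as pairs. If they do mark pairs, the main tests left that pairing out. As a hint from the data, 6 of 6 libraries correlated best with their own number, out of 3 in the other group, in 3 comparisons. With BBR added to OA, 5 of 6 did. Libraries of different numbers had r from -0.147 to 0.0572. In all 4 groups Pdhb was highest in replicate 3, Pdp2, Pdha1 and Mpc2 were highest in replicate 1, Mpc1 was lowest in replicate 1 and Pdk3 lowest in replicate 3. The replicate block added calls for Mpc1 with BBR added to OA (adjusted p = 0.0296), Pdha1 under OA (0.00679), Pdk1 (0.0394) and Mpc1 (0.0378) with OA added to BBR, and the interactions of Pdp2 (0.0188), Pdha1 (0.0238) and Mpc2 (0.0363), and moved the SE of Mpc1 under OA from 0.081 to 0.038. With one length per gene the control shares were 58.6% for Pdk1 and 8.0% for Pdk4. Changes of sign under other scalings concerned Pdp1 with OA added to BBR (-0.027 for upper quartile, -0.0014 for library totals). With 1 library left out they ranged as follows. Under BBR alone Pdk2 ranged from -0.10 to 0.034 and Pdp1 from -0.095 to 0.067. With BBR added to OA, Pdp1 ranged from -0.16 to 0.020, Pdp2 from -0.17 to 0.019, Pdk3 from -0.089 to 0.19 and Pdhb from -0.20 to 0.034. With OA added to BBR, Pdk2 ranged from -0.090 to 0.048 and Pdp1 from -0.082 to 0.11. The interaction of Pdp1 ranged from -0.14 to 0.041. The SE in a comparison of 2 groups reached 0.17 for Pdk3, the gene with the lowest counts, and 0.13 for Pdp1.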
